A study of Mus musculus with 6 samples.

Results

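Cycling leukocytes of mouse soleus are the cells of this CD45+ sort that carried the transcripts of DNA replication and mitosis. A cell was called cycling when it held a UMI (unique molecular identifier, 1 counted RNA molecule) of at least 4 of 8 genes, Mki67, Top2a, Birc5, Ube2c, Ccna2, Pclaf, Cdca3 and Ccnb2. This rule took 335 of the 12520 cells kept (2.68%), from 15467 deposited barcodes. Because the rule used the expression of the cells, their share and their cell cycle genes are described here without a test.

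Leukocytes were sorted as CD45+ DAPI- cells from the pooled solei of male C57BL/6 mice and sequenced on the 10x Chromium platform, 1 library for each group. The groups were old (20 to 22 months) and young (4 to 5 months) mice that were kept as ambulatory controls, underwent hindlimb unloading (HU), or were returned to walking for 4 days after HU (4-day reload). The study set these conditions against each other to follow macrophages of aged muscle in early recovery from disuse. Each library held 1675 to 3676 barcodes and 5782054 to 22749375 UMIs.

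With 1 pooled library per group there was no replicate, so no difference between groups has a test, and intervals below cover counting error only. An exact permutation over libraries could not go below p = 0.0667 for 2 libraries against 4, or below 0.25 (two-sided) for 3 age pairs. The sample names give each condition a number of its own, shared by both ages, so condition and that number cannot be told apart. The run label of the control libraries differed from the label shared by HU and reload libraries, so HU or reload against control cannot be told apart from the run, while reload against HU lies within 1 run label. The 2 control libraries shared 41 cell barcodes, of which 36 had UMI totals within 1.25-fold of each other, whereas the other pairs of libraries shared 5 to 17 barcodes and 0 to 3 such near-equal ones. Among the shared barcodes of the control pair were 7 cycling cells of the old and 7 of the young library. The cycling and lineage shares, the shares of T cells with a gene and the cells with markers of more than 1 lineage are therefore also given without barcodes found in more than 1 library.

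A dividing cell copies its DNA in S phase, prepares in G2 and separates its chromosomes in mitosis (M), and many genes of these steps are transcribed only while they run. Muscle macrophages can be renewed by division of resident cells as well as by monocytes from blood, conventional dendritic cells derive from precursors that still divide in tissue, and T cells divide after activation, whereas mature neutrophils do not divide. Transcripts of the cycle mark cells in S, G2 or M phase and say nothing of how often a cell divides.

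The genes that chose the cells act at different steps. Mki67 encodes the proliferation antigen Ki-67, which coats mitotic chromosomes, Top2a the topoisomerase that untangles DNA, Birc5 survivin of the chromosomal passenger complex, and Ube2c an enzyme of the anaphase-promoting complex. Ccna2 and Ccnb2 are cyclins A2 and B2, Pclaf binds the replication clamp PCNA, and Cdca3 is a trigger of mitotic entry. All 8 lie on different loci of the mouse genome (GENCODE vM21, build GRCm38), from Mki67 on the minus strand of chromosome 7 (135689784 to 135716361) and Birc5 on the plus strand of chromosome 11 (117849251 to 117855743) to Ccna2 on the minus strand of chromosome 3 (36564865 to 36572150). A UMI of Birc5 was found in 91.9% of cycling cells, against 0.681% of other cells, and a UMI of Mki67 in 89.9% of cycling cells, against 3.98% of other cells. Ccna2 was the least often detected, in 71.3% of cycling cells and 0.287% of other cells. These shares restate the rule.

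In CPM (UMIs of a gene per 1000000 UMIs of the summed cells), Mki67 stood at 257, 288, 224, 406, 348 and 217 in cycling cells of old control, young control, old HU, young HU, old reload and young reload, against 5.71, 6.73, 10.5, 2.39, 12.6 and 10.9 in other cells. Birc5 stood at 264, 247, 303, 511, 369 and 280 CPM in cycling cells, against 1.31, 2.42, 1.54, 0.994, 1.97 and 0.597 CPM in other cells of the same libraries. No cycling value overlapped the other cells, which the rule makes sure of.

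The threshold cut a sparse middle range. Of the kept cells, 48 held exactly 4 of the genes, with a median of 8291.5 UMIs and a mean of 9.13 UMIs of the 8 genes, and 80 cells just outside held exactly 3, with 8590.5 and 5.84. At the upper end, 194 of the 335 cycling cells (57.9%) held 7 or 8.

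Upstream of such genes, the CCAAT box bound by NF-Y and the cell cycle genes homology region (CHR, spelled TTTGAA, or in a rarer form TTCGAA) bound by the DREAM and MuvB complexes are known elements of transcription in G2 and M. In the RefSeq promoter table (GRCm38.p6) the 250 bases before the start were searched on both strands for 7 of the 8 genes, Ccna2 being the other. CCAAT was found in 6 of 7, against 33.8% of all 32851 windows, TTTGAA in 4 of 7, against 15.99%, and both in 4 of 7 (Mki67, Top2a, Ube2c and Ccnb2), against 5.55%. TTCGAA was found upstream of Top2a alone, against 1.34% of windows. The E2F words TTTGGCGC, TTTCCCGC, TTTGCCGC and TTTCGCGC were found in 0 of 7, against 1.86%. A match is a description of letters and not a bound site. The 120 bases before the start are shown for 4 genes, since they let these elements be read in the genes that define the cells, with the CCAAT box (read as ATTGG on the other strand) and both CHR forms (the first read as TTCAAA on the other strand) in capitals. Mki67 lies at chr7:135716380-135716499 on the minus strand, Top2a at chr11:99024190-99024309 on the minus strand, Ccnb2 at chr9:70421555-70421674 on the minus strand and Birc5 at chr11:117849117-117849236 on the plus strand.
Mki67: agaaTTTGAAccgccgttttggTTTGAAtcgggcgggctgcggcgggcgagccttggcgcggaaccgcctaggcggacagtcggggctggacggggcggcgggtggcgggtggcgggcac
Top2a: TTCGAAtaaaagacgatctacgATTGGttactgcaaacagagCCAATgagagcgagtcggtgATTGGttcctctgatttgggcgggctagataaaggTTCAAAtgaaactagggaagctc
Ccnb2: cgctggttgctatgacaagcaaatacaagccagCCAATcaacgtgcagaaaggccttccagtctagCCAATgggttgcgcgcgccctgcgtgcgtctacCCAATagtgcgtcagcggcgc
Birc5: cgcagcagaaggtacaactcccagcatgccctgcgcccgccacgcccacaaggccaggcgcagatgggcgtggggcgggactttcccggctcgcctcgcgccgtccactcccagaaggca
Mki67 shows a pair of CHR words 5' in the printed stretch, with its CCAAT words at positions -188, -166 and -141 outside it. Top2a shows CCAAT words on both strands between a CHR word of each form, Ccnb2 shows CCAAT 3 times, and Birc5 shows no word of either kind.

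The label of leukocytes was checked with Ptprc, which encodes CD45. A UMI of Ptprc was found in 292 of 335 cycling cells (87.2%), against 7855 of 12185 other cells (64.5%). Cycling cells held more UMIs than other cells and these shares were not thinned, so the part of depth in this difference was not tested. By library it was in 54 of 62, 58 of 67, 21 of 24, 4 of 12, 83 of 94 and 72 of 76 cycling cells, in the order given for Mki67. Young HU stood apart at 33.3% of its 12 cycling cells, and other cells of the HU libraries were low as well, at 41.6% in old HU and 27.2% in young HU.

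At the cells' own depth, the share of cells in cycle was lowest in HU at both ages. In old mice, 62 of 2631 control cells were cycling (2.36%, exact 95% binomial interval 1.81 to 3.01), 24 of 1890 HU cells (1.27%, 0.815 to 1.88) and 94 of 2425 reload cells (3.88%, 3.14 to 4.72). In young mice, 67 of 1605 control cells were cycling (4.17%, 3.25 to 5.27), 12 of 1518 HU cells (0.791%, 0.409 to 1.38) and 76 of 2451 reload cells (3.101%, 2.45 to 3.87). The HU intervals lay below those of reload at both ages. The place of old HU depended on depth: thinned to 4000 UMIs its share was 2.95%, against 2.76% in old control, and with at least 1000 genes per cell it was 2.49%, against 2.81%. The intervals of old and young overlapped in HU and in reload, and in control the old share was below the young one without overlap. Without shared barcodes the control shares were 2.15% in old mice (55 cells, interval 1.63 to 2.79) and 3.77% in young mice (58 cells, 2.88 to 4.85).

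Depth moved with these shares. Cycling cells had a median of 13813.5, 14676, 11557, 7538.5, 12833.5 and 17910.5 UMIs in the 6 libraries, in the order above, against 3902, 4407, 2530.5, 2542, 5788 and 7864 in other cells. When each cell was thinned to 2000 UMIs, leaving out 276 to 734 shallower cells per library, 105 cells still held 4 of the genes. The thinned shares were 0.757% in old control, 1.08% in young control, 0.692% in old HU, 0.852% in young HU, 1.79% in old reload (interval 1.26 to 2.47) and 1.01% in young reload (0.635 to 1.53). At equal depth the interval of old reload lay above that of old control (0.442 to 1.21) and overlapped those of the other libraries.

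**Figure D1:**
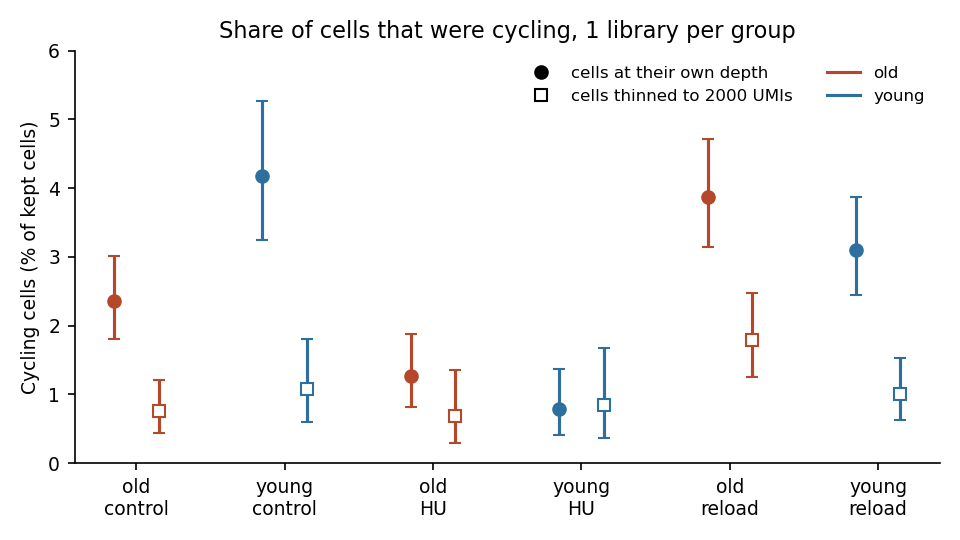
Share of kept cells that were cycling (y axis, percent) in each of the 6 libraries (x axis, old in red and young in blue), at the cells' own depth (filled circles) and after thinning to 2000 UMIs (open squares). Bars are exact 95% binomial intervals, counting error only. The HU libraries lie lowest at their own depth (1.27% and 0.791%), and the spread between libraries is smaller after thinning, with old reload highest at 1.79%.

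Macrophages made up the larger part of the cycling cells. Each cell was given the lineage of 13 panels of 8 markers (7 for erythroid cells) of which it held most markers, at least 3 and without a tie. By this rule 182 of 335 cycling cells were macrophages (54.3%, interval 48.8 to 59.8), 62 dendritic cells (18.5%), 32 T cells (9.55%), 14 monocytes (4.18%), 4 NK cells, 2 fibroblasts and 1 ILC2 (group 2 innate lymphoid cell), while 15 were tied and 23 had too few markers. The panel markers chose these lineages, so their shares describe the cells. C1qb, a chain of complement C1q made by tissue macrophages, was in 96.7% of cycling macrophages and Csf1r, the receptor for the macrophage growth factor CSF1, in 95.6%. Flt3, the receptor for the dendritic cell growth factor, was in 87.1% of cycling dendritic cells, Clec9a, a receptor for dead cells on type 1 dendritic cells, in 62.9% and Xcr1, their chemokine receptor, in 38.7%. Cd3g and Cd3e, chains of the T cell receptor complex, were in 96.9% and 90.6% of cycling T cells, and Ccr2, the chemokine receptor of blood monocytes, was in all 14 cycling monocytes.

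The mix of lineages differed between libraries. Macrophages were 16 of 62 cycling cells in old control (25.8%, interval 15.5 to 38.5) and 38 of 67 in young control (56.7%, 44.0 to 68.8). They were 11 of 24 in old HU (45.8%) and 6 of 12 in young HU. At reload they were 69 of 94 in old mice (73.4%, 63.3 to 82.0) and 42 of 76 in young mice (55.3%, 43.4 to 66.7). Old control held the smallest and old reload the largest macrophage share, and these intervals did not overlap.

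Dendritic cells were 17 of 94 cycling cells in old reload (18.1%, interval 10.9 to 27.4) and 25 of 76 in young reload (32.9%, 22.5 to 44.6), with overlapping intervals. They were 8 of 62 in old control (12.9%), 8 of 67 in young control (11.9%), 3 of 24 in old HU and 1 of 12 in young HU. T cells were 17 of 62 in old control (27.4%) and 8 of 67 in young control (11.9%), then 3 of 24 in old HU, 1 of 12 in young HU, 1 of 94 in old reload and 2 of 76 in young reload. The control libraries held 25 of the 32 cycling T cells, and old control held 10 of the 14 cycling monocytes. Without shared barcodes the T cells were 12 of 55 in old control (21.8%) and 4 of 58 in young control (6.90%), and the macrophages were 29.1% and 60.3%.

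**Figure D2:**
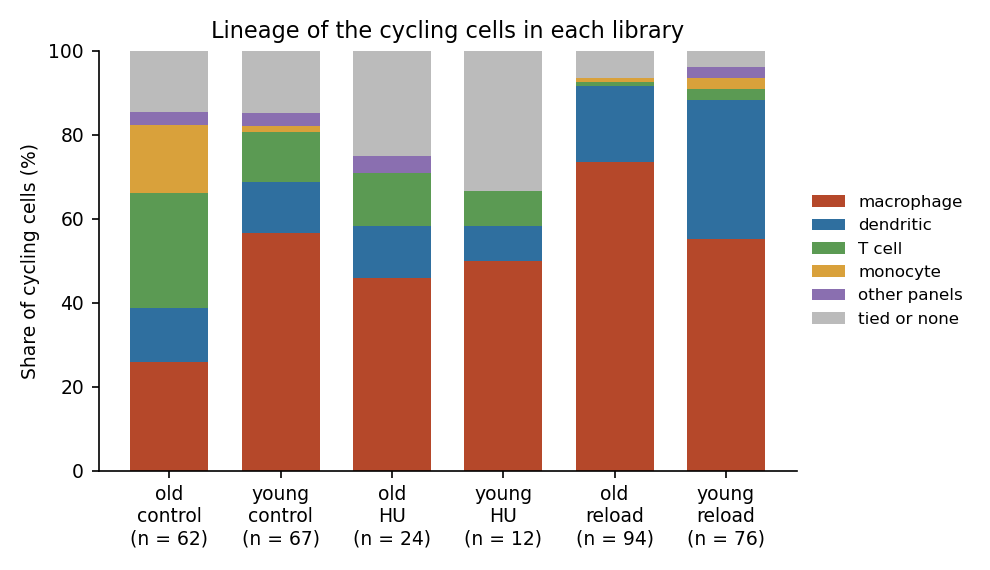
Lineage of the cycling cells as a share (y axis, percent) of all cycling cells of each library (x axis, with the number of cells). Macrophages take 73.4% in old reload, against 25.8% in old control, and T cells take 1.06% in old reload, against 27.4% in old control.

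The single genes that the rule names for lineages gave macrophages, dendritic cells and T cells in the same order. Any chain of C1q was detected in 209 of 335 cycling cells (62.4%), against 4.53% of other T cells, which should lack it (median 3318 UMIs). By library this background ran from 2.52% in young control to 12.0% in old reload and 13.8% in young reload. The T cells of these reload libraries had medians of 2998 and 3145 UMIs, fewer than cycling cells. Flt3 was detected in 95 cycling cells (28.4%), against 0.472% of other T cells. Cd3e was detected in 33 cycling cells (9.85%), against 0.931% of other macrophages (median 6093 UMIs), and Gata3, a transcription factor of ILC2 and some T cells, in 15 (4.48%), against 0.455%. Cd79a, of the B cell receptor, was detected in 10 cycling cells (2.99%), near the 2.21% of other macrophages, which should lack it (11.5% in old control and 0% in young HU at the extremes), so it is not read as expression. The source of these UMIs was not tested. Only C1q was found in 158 cells, only Flt3 in 50, only Cd3e in 18 and only Gata3 in 3, while 63 cells held more than 1 of these (36 of them C1q with Flt3) and 43 held none.

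Some cells carried markers of more than 1 lineage. At least 3 markers of a myeloid panel together with at least 3 of another kind of panel were found in 37 of 335 cycling cells (11.0%), against 659 of 12185 other cells (5.41%). In old control they were 18 of 62 cycling cells (29.0%), against 13.1% of other cells, and at reload 4 of 94 in old and 2 of 76 in young mice. Without barcodes found in more than 1 library they were 17 of 55 cycling cells of old control (30.9%), against 13.2% of other cells. Scrublet marked 2 of 62 cycling cells in old control, 2 of 94 in old reload and 7 of 76 in young reload (9.21%), and 0 in the remaining libraries. The part of doublets in the lineage shares was not tested. The 38 tied or unnamed cycling cells held the MHC class II chaperone Cd74 in 34, the monocyte and macrophage lysozyme Lyz2 in 28, Ptprc in 28 and Cd3e in 1.

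Seen from the other side, dendritic cells were the lineage with the largest share in cycle among those with at least 20 cycling cells. Over all libraries 62 of 613 dendritic cells were cycling (10.1%, interval 7.84 to 12.8), against 182 of 5014 macrophages (3.63%, 3.13 to 4.19) and 32 of 1091 T cells (2.93%, 2.01 to 4.12). Monocytes had 14 of 969 cycling (1.44%), NK cells 4 of 268 (1.49%) and ILC2 1 of 572 (0.175%). No cycling cell was found among 1031 neutrophils, which allows a share of up to 0.291% passing the rule, among 512 endothelial cells (up to 0.586%) or among 329 B cells (up to 0.912%). These limits cover counting only. Shallow cells pass the rule less often, so the share truly in cycle could be higher. Thinned to 2000 UMIs, with the lineage called before thinning, the shares were 3.43% of dendritic cells (2.13 to 5.19), 1.27% of macrophages (0.961 to 1.65) and 1.21% of T cells, over the pooled libraries. A lineage call needed at least 3 markers and so favoured deep cells, which thinning after the call does not undo. The part of this in the order of the lineages was not tested.

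Among macrophages the cycling share was 16 of 416 in old control (3.85%, interval 2.21 to 6.17), 11 of 659 in old HU (1.67%, 0.836 to 2.97) and 69 of 1295 in old reload (5.33%, 4.17 to 6.70). In young mice it was 38 of 582 in control (6.53%, 4.66 to 8.85), 6 of 615 in HU (0.976%, 0.359 to 2.11) and 42 of 1447 in reload (2.90%, 2.10 to 3.90). At reload, the share in old mice lay above that in young mice without overlap of the intervals, and in control the old share was lower, with overlap. After thinning the reload shares were 2.36% in old mice (1.576 to 3.397) and 0.906% in young mice (0.469 to 1.577), and the intervals just met. The control shares were then 1.06% in old and 0.904% in young mice. Without shared barcodes, at the cells' own depth, 65 of 1272 macrophages were cycling in old reload (5.11%) and 35 of 564 in young control (6.21%).

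Among dendritic cells the share was 8 of 76 in old control (10.5%), 3 of 35 in old HU (8.57%) and 17 of 148 in old reload (11.5%, 6.84 to 17.8), and in young mice 8 of 62 in control (12.9%), 1 of 27 in HU (3.70%) and 25 of 265 in reload (9.43%, 6.20 to 13.6). The reload intervals of the 2 ages overlapped. Set against macrophages of the same library, the dendritic share was higher in 6 of 6 libraries at the cells' own depth and in 5 of 6 after thinning, where 0 of 35 dendritic cells of old HU were cycling. T cells were cycling in 17 of 613 in old control (2.77%) and 8 of 127 in young control (6.30%), which became 12 of 581 (2.07%) and 4 of 105 (3.81%) without shared barcodes. In the other libraries 1 to 3 T cells were cycling, too few to order.

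**Figure D3:**
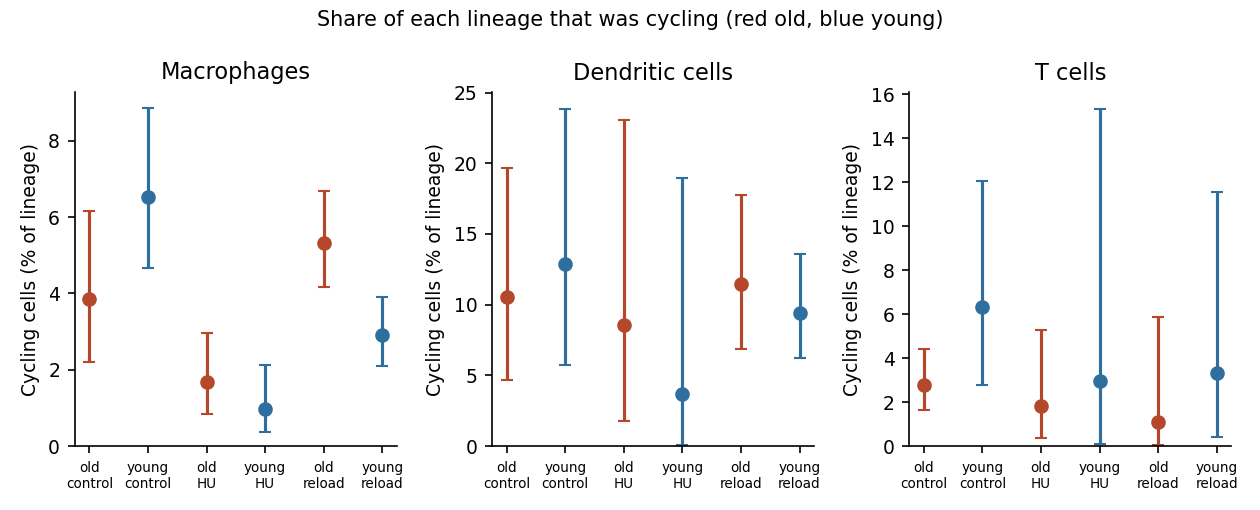
Share of macrophages, dendritic cells and T cells that were cycling (y axes, percent, each panel with its own scale) in the 6 libraries, with exact 95% binomial intervals. Macrophages of old reload (5.33%) lie above those of young reload (2.90%), while the dendritic cell shares at reload, 11.5% in old and 9.43% in young mice, overlap.

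Outside the rule, the genes with the highest ratio of cycling over other kept cells were also of the mitotic and replication machinery. The ratio was that of CPM averaged over the 6 libraries with equal weight, among genes with at least 200 UMIs in cycling cells, so it ranks enrichment in cycling cells and not likeness to any 1 gene. Pbk, a mitotic kinase, was 271-fold higher, Kif11, the kinesin that separates spindle poles, 206-fold, and Hmmr, a spindle-binding protein, 195-fold. Cenpf and Spc24, of the kinetochore, were 133-fold higher each. Nusap1, a spindle protein, Ccnb1, cyclin B1, and the linker histone Hist1h1b followed at 116-fold, 107-fold and 104-fold. All were higher in 6 of 6 libraries, and Mki67 itself, which had more UMIs in other cells, was 35.6-fold higher. Histones are encoded by many near-identical copies, so their counts may be split between copies.

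Cycling macrophages were next set against the other macrophages of the same library, as a log2 ratio of CPM, in the 3 libraries with at least 20 cycling macrophages (69 against 1226 cells in old reload, 42 against 1405 in young reload and 38 against 544 in young control). A gene was measured with at least 20 UMIs over both sides and counted when the ratio was at least 1.5-fold. Over all measured genes 24.2% were higher and 13.8% lower in old reload, 21.1% and 13.3% in young reload, and 20.8% and 14.3% in young control, with medians of 0.13, 0.06 and 0.09. Since the cells were chosen by genes of this contrast, the cell cycle lists describe them and support nothing.

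Of the G2 and M phase list without the genes of the rule, 41 of 42 measured members were higher in old reload, 38 of 39 in young reload and 31 of 32 in young control, and none was lower. The medians were 4.77, 4.33 and 3.69. Hmgb2, a chromatin protein and the most abundant member, stood at 966 CPM in cycling and 110 CPM in other macrophages of old reload (log2 ratio 3.13, exact Poisson interval 2.99 to 3.26), and Smc4, of condensin, at 335 and 30.2 CPM (3.47). Gas2l3 was the lowest member, at 0.50, 0.13 and -0.09. Of the S phase list, 39 of 41, 36 of 37 and 28 of 31 were higher and none lower, with medians of 2.41, 2.44 and 2.31. Pcna, the replication clamp, had ratios of 1.22, 1.29 and 0.61, and Rrm2, the regulated subunit of ribonucleotide reductase, 5.85 in old reload and 7.23 in young reload. The nucleotide synthesis list had 13 of 15, 11 of 14 and 8 of 13 members higher, led by thymidine kinase Tk1 at 5.08, 5.27 and 6.19.

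Genes of the G1 decision were higher less uniformly, with 9 of 17 members higher and 1 lower in old reload, 9 and 2 in young reload, and 8 and 2 in young control. Cdk4, the kinase of D-type cyclins, stood at 136, 91.9, 158, 448, 161 and 157 CPM in cycling macrophages of the 6 libraries, in the order given for Mki67, against 64.2, 58.6, 59.8, 80.3, 64.1 and 67.6 CPM in other macrophages. It was higher in every library, by 1.33 on the log2 scale in old reload and 1.22 in young reload. Cdkn2c, an inhibitor of CDK4 and CDK6 (p18), was likewise higher, at 93.3 CPM in cycling and 6.10 CPM in other macrophages of old reload (3.93). Cdkn1a, the inhibitor p21, had 506 CPM in cycling and 874 CPM in other macrophages of old reload (-0.79), 524 and 928 CPM in young reload (-0.82) and 544 and 718 CPM in young control (-0.40). Receptors for growth factors showed no common direction, with 2 higher and 3 lower of 12 in old reload, 6 and 1 of 14 in young reload and 0 and 4 of 13 in young control. Csf1r stood at 640 CPM in cycling and 724 CPM in other macrophages of old reload, a ratio of -0.18.

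Genes that mark macrophage states were mostly at or below the level of other macrophages. Of the lipid-associated list, genes of lysosomes and lipid handling that macrophages raise after taking up debris, 8 of 14 were lower and 1 higher in old reload, 6 and 2 in young reload, and 5 and 2 in young control, with medians of -0.75, -0.45 and -0.28. Of the recruited list, genes of cells derived from blood monocytes, 8 of 14, 7 of 14 and 5 of 12 were lower and 0, 0 and 1 higher. Its members Ly6c2, Ccr2, Plac8, Vcan, Chil3 and Fn1 are also markers of the monocyte panel. The lineage call thus limited how many of them a macrophage could hold, cycling or not. The part of this in the ratios was not tested, here or where these genes are named below. Of the resident list, 4, 3 and 9 of 14 were lower and 0, 1 and 0 higher. Of the 7 MHC class II genes, 1 was lower in old reload (median -0.50) and 1 higher in young reload.

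Apoe, the lipid carrier apolipoprotein E, stood at 792, 769, 1365, 2514, 3013 and 4634 CPM in cycling macrophages of the 6 libraries, in the same order, against 4251, 2288, 3903, 5964, 6877 and 9832 CPM in other macrophages. Within each library it was lower in cycling macrophages, with log2 ratios of -1.19 in old reload (interval -1.25 to -1.13) and -1.09 in young reload, while levels of different libraries overlapped. Ctsb, the lysosomal protease cathepsin B, had 775, 1463, 661, 1917, 1737 and 2372 CPM in cycling macrophages, against 2139, 2005, 1892, 3348, 2735 and 3340 CPM in other macrophages. Gpnmb, a lysosomal glycoprotein, had 0 UMIs in the cycling macrophages of old reload, against 624 UMIs in other macrophages (66.8 CPM), which bounds the log2 ratio at -4.12 with 3 counts taken for the 0. Selenop, a selenium carrier of resident macrophages, had 718, 643, 1028, 2564, 861 and 975 CPM in cycling macrophages, against 2355, 1298, 3042, 5033, 1479 and 1563 CPM in other macrophages. Cd9, a tetraspanin of the lipid-associated list, ran the other way and was higher in cycling macrophages of every library, at 194 CPM against 128 CPM in old reload (0.60) and 228 CPM against 108 CPM in young reload.

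Differences of any size were counted over all 6 libraries. Of the 8105 genes with at least 200 UMIs in macrophages, 10.8% were higher and 8.24% were lower in cycling macrophages of every library. By this count 7 of 14 resident genes were lower (Lyve1, Folr2, Gas6, Cd209f, C4b, Selenop and Igf1), 5 of 14 lipid-associated genes (Apoe, Ctsb, Ctsd, Cd63 and Gpnmb), 3 of 14 recruited genes (Plac8, Tnf and Ifitm6) and 0 of 7 MHC class II genes, while Cd9 was the only one of these higher. Lyve1, a hyaluronan receptor of vessel-associated resident macrophages, had 178, 84.2, 187, 349, 90.7 and 43.8 CPM in cycling macrophages, against 439, 178, 414, 548, 103 and 50.3 CPM in other macrophages. Folr2 stood at 181 CPM in cycling and 186 CPM in other macrophages of old reload. Thinned to 2000 UMIs, Lyve1 was found in 12.3% of cycling and 11.6% of other macrophages of old reload. In young reload it was in 7.14% and 6.00%. Folr2 was in 26.2% and 23.7% in old reload and in 21.4% and 23.2% in young reload. These reload intervals overlapped. Outside reload both thinned shares were lower in cycling macrophages, except Folr2 in young HU (50% and 48.9%). The HU and old control values rest on 6 to 16 cycling macrophages. A gene with 0 UMIs in cycling macrophages counted as lower. In young HU this was so for Gpnmb and Plac8, at 4.88 and 8.43 CPM in other macrophages. There 1 UMI in cycling macrophages made 24.9 CPM, so 0 UMIs could not tell lower from equal for these 2 genes.

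Individual inflammatory genes did not move as 1 block. Il1b, which encodes interleukin-1 beta, stood at 710 CPM in cycling and 1875 CPM in other macrophages of old reload (-1.40) and at 1336 and 2473 CPM in young reload (-0.89), but at 1351 and 1066 CPM in young control (0.34). It was also higher in cycling macrophages of old control (1745 and 848 CPM) and old HU (934 and 608 CPM), and lower in young HU (24.9 and 70.5 CPM). Ccl2, the chemokine that draws monocytes, was 0.22 higher in old reload, 0.22 in young reload and 0.33 in young control, under the 1.5-fold limit each time. In old control, old HU and young HU it was lower, at 557, 956 and 224 CPM in cycling macrophages, against 1798, 1999 and 568 CPM in other macrophages. These values of control and HU in old mice and of young HU rest on 6 to 16 cycling macrophages. Ly6c2, a surface protein of blood monocytes, had 1 UMI in cycling macrophages of old reload, against 580 in other macrophages, and 28, against 3498, in young reload (-2.72).

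Depth also matters for shares of cells with a UMI. At their own depth, Ccr2 was found in 88.4% of cycling and 76.4% of other macrophages of old reload and in 88.1% and 78.2% in young reload, and Cx3cr1, the fractalkine receptor, in 65.2% and 39.0% in old reload and in 42.9% and 41.1% in young reload. Thinned to 2000 UMIs, Ccr2 was found in 50.8% of cycling and 54.3% of other macrophages of old reload and in 42.9% and 51.5% in young reload, while Cx3cr1 was in 30.8% and 19.1% in old reload and in 31.0% and 16.4% in young reload. The thinned intervals of cycling and other macrophages overlapped for both genes in both reload libraries. They lay apart for Trem2, of the lipid-associated list, in young reload (23.8% of cycling and 47.9% of other macrophages). So did those of the MHC class II gene H2-Ab1 in old reload (75.4% and 88.2%). In the control libraries thinned Cx3cr1 was in 6.25% and 7.73% in old mice and in 5.26% and 6.80% in young mice, and Ccr2 in old HU was in 54.5% and 19.0% (6 of 11 cycling macrophages). Outside reload, thinned intervals lay apart for Ccr2 and Il1b in old HU and for Trem2 and Cbr2 in old control.

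At 4-day reload, old cycling macrophages (69 cells) were compared with young ones (42 cells). Of 6150 measured genes 876 (14.2%) were at least 1.5-fold higher and 586 (9.53%) lower in old, with a median of 0.02. The measured genes include the 8 genes of the rule, of which 4 were higher and 0 lower, while the lists below leave them out. In simulated Poisson counts at these totals, 13.75% of 5694 genes without a true difference passed 1.5-fold in either direction. Among those with at least 100 UMIs it was 1.56% of 1927 genes. Spread between cells was not simulated. Of the G2 and M phase list 30 of 43 members were higher and none lower, with a median of 0.78. Its summed level was 5471 CPM in old and 3463 CPM in young cycling macrophages (log2 ratio 0.66, interval 0.59 to 0.73). Of the S phase list 4 of 33 were higher and none lower (median 0.23). The cells on both sides were chosen by genes of which most belong to G2 and M phase. With 1 library per age this is a difference between these libraries.

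Hmgb2 stood at 966 CPM in old and 679 CPM in young cycling macrophages (0.51), Smc4 at 335 and 195 CPM (0.78) and Cenpa, the centromeric histone, at 312 and 208 CPM (0.58). Kif20b, a kinesin of cytokinesis, was the highest member at 48.5 and 10.6 CPM (2.20) and the checkpoint kinase Bub1 the lowest at 30.7 and 27.2 CPM (0.17). The same list in macrophages that were not cycling had 9 of 32 members higher in old and none lower (median 0.21), beside 7.22% of genes higher and 4.61% lower over all 10705 measured. There the S phase list had 16 of 38 higher and none lower (median 0.49). When mean UMIs per cell were compared instead of CPM, 8 of 43 G2 and M phase members were higher in old and none lower (median 0.31), because old cycling macrophages held fewer UMIs (all-gene median -0.45). By that measure 0 of 33 S phase members were higher in old cycling macrophages and 10 lower (median -0.24), so the direction of the S phase list depended on the measure.

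Single cells were also read by their balance of S against G2 and M transcripts. Over all libraries 65 of 335 cycling cells (19.4%) held more UMIs of the S phase list than of the G2 and M phase list, and the medians were 22 and 54 UMIs. In cycling macrophages at reload this was 11 of 69 in old mice (15.9%, interval 8.24 to 26.7) and 13 of 42 in young mice (31.0%, 17.6 to 47.1), and in dendritic cells 1 of 17 and 7 of 25. The intervals overlapped. The S phase list took 28.6% of the UMIs of both lists in old and 37.7% in young cycling macrophages, and 25.9% and 37.2% in dendritic cells. For 81 of the 335 cells the lists differed by less than 20% of the UMIs of both lists together, so the call is a range and not a class.

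**Figure D4:**
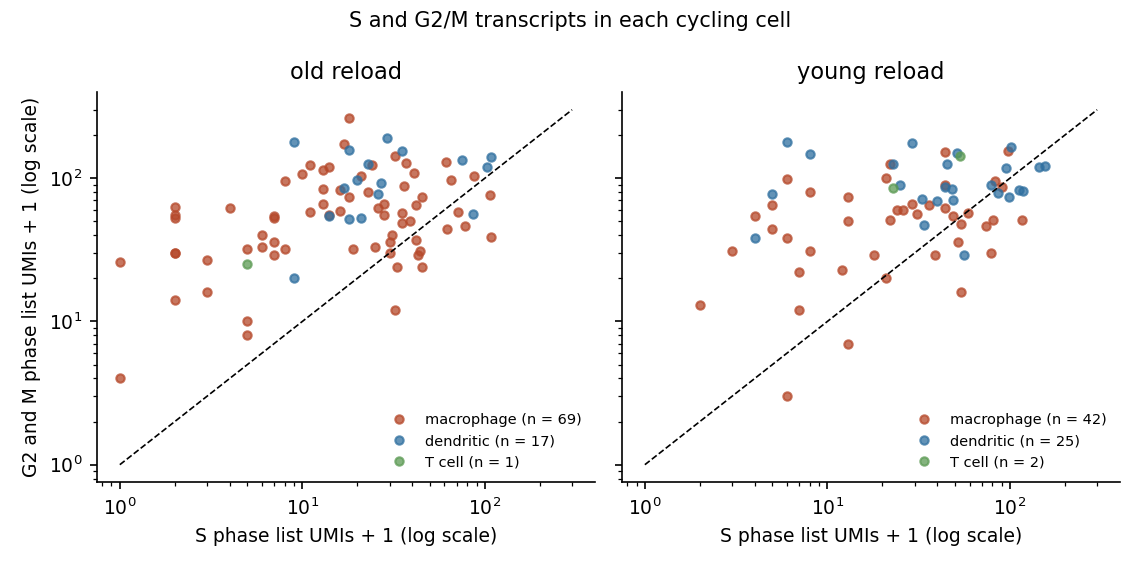
UMIs of the G2 and M phase list (y axis) against UMIs of the S phase list (x axis), both plus 1 on log scales, for each cycling macrophage, dendritic cell and T cell of old reload (left) and young reload (right). The dashed line marks equal counts, and 11 of 69 old and 13 of 42 young macrophages lie on its S phase side.

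Among single genes with at least 100 UMIs, the 10 that were highest in old over young cycling macrophages at reload were led by Lyz1, a lysozyme, at 278 and 60.4 CPM (2.20, interval 1.71 to 2.73). Since Lyz1 is a close copy of Lyz2, reads may be split between them. Ccl12, a monocyte chemokine, followed at 559 and 156 CPM (1.85), and Retnla, a secreted protein of alternatively activated macrophages, at 1449 and 420 CPM (1.79). The others were the water channel Aqp1 (1.60), the interferon-induced chemokine Cxcl10 (1.59), S100a8 (1.43), the haemoglobin scavenger receptor Cd163 (1.28), Fam102b (1.27), Prc1, which bundles spindle microtubules (1.27), and Zfhx3 (1.26). S100a8 is a defining gene of neutrophils, and its part as free RNA was not tested. It was also higher in old among macrophages that were not cycling, at 144 CPM in old and 42.6 CPM in young mice. Lyz1, Ccl12 and Retnla were higher there too, by 1.85, 1.09 and 2.97, and Prc1 by 0.77. So were Cxcl10 (1.24), Aqp1 (1.03), Cd163 (0.53), Zfhx3 (0.27) and Fam102b (0.17).

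The 10 lowest were led by Plac8, a gene of blood monocytes, at 34.5 CPM in old and 163 CPM in young cycling macrophages (-2.24, interval -2.91 to -1.62). Hilpda, a lipid droplet protein induced by hypoxia, stood at 28.1 and 118 CPM (-2.07) and Cd209a, a lectin of monocyte-derived and type 2 dendritic cells, at 80.5 and 287 CPM (-1.83). The others were Ly6a (-1.53), Tspan13 (-1.40), the cholesterol exporter Abca1 (-1.28), Fem1c (-1.27), Csf2rb, the shared receptor chain for GM-CSF and IL-3 (-1.20), Btg1 (-1.19) and Gstp1 (-1.14). In macrophages that were not cycling, Plac8 (-0.62) and Cd209a (-1.28) were lower in old as well, whereas Hilpda was at 120 CPM in old and 106 CPM in young mice (0.17). The rest of these genes were also lower in old there, from -0.24 (Fem1c) to -1.44 (Ly6a).

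By list, the resident genes had 6 of 12 members higher and 1 lower in old cycling macrophages (median 0.51), with the mannose receptor Mrc1 at 648 CPM in old and 388 CPM in young mice (0.74). The lipid-associated genes had 2 of 14 higher and 5 lower (median -0.48), with Apoe at -0.62, the galectin Lgals3 at -0.59 and the scavenger receptor Cd36 at 1.21. The recruited genes had 3 of 10 higher and 4 lower, with Fn1, fibronectin, at 0.71 and Il1b at -0.91, and the 7 MHC class II genes had 0 past the limit (median -0.31). The other macrophages had 7 of 14 resident genes higher and 0 lower in old (median 0.56).

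**Figure D5:**
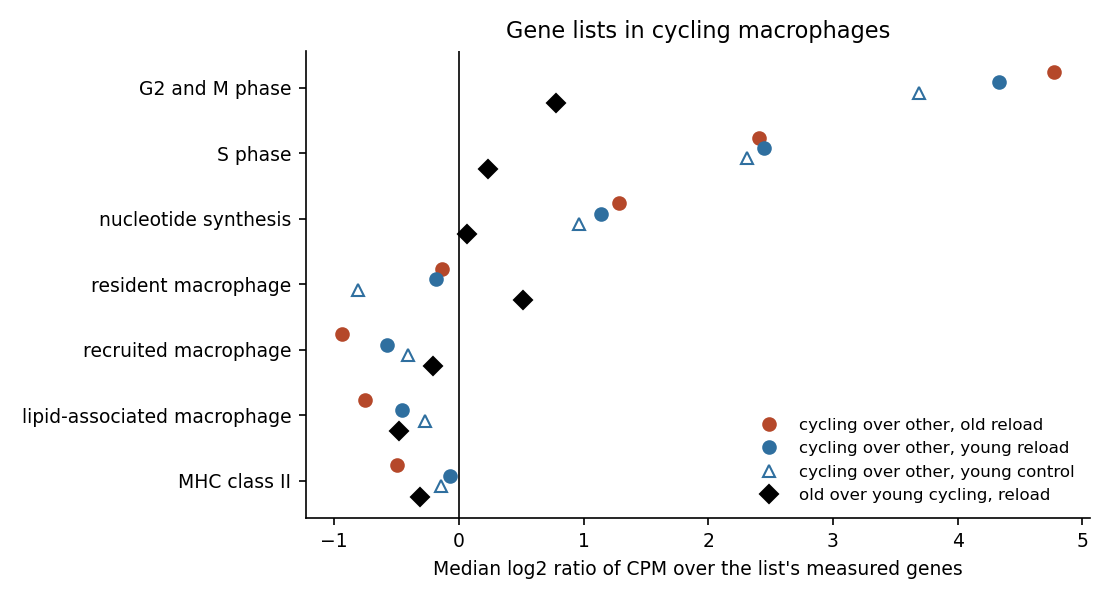
Median log2 ratio of CPM (x axis) over the measured genes of each list (y axis), for cycling over other macrophages in old reload (red circles), young reload (blue circles) and young control (open triangles) and for old over young cycling macrophages at reload (black diamonds). G2 and M phase genes have medians of 3.69 to 4.77 against other macrophages and 0.78 in old over young, and lipid-associated genes lie below 0 in all 4.

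Among dendritic cells, young reload held enough cycling cells (25, against 240 other) for the same comparison. Of 7509 measured genes 19.3% were higher and 20.1% lower in cycling cells. The S phase list had 31 of 31 and the G2 and M phase list 30 of 30 members higher, a contrast that the rule used. Genes of type 1 dendritic cells, the cross-presenting subset, had 0 of 8 past the limit (median 0.30). Genes of type 2 dendritic cells had 6 of 8 lower (median -1.79) and those of mature dendritic cells 7 of 8 lower (median -2.13), and none of either was higher. Ccr7, the receptor that guides mature dendritic cells to lymph nodes, had 5 UMIs in cycling and 1224 UMIs in other dendritic cells, or 9.38 and 383 CPM (-5.35, interval -6.98 to -4.13). Cd209a had 176 CPM in cycling and 669 CPM in other dendritic cells (-1.92), and the type 2 lectin Mgl2 46.9 and 197 CPM (-2.07). Irf8, a transcription factor of the type 1 subset, had 538 and 394 CPM (0.45).

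Over the cells of all libraries Ccr7 was detected in 8 of 62 cycling dendritic cells (12.9%) and 107 of 551 others (19.4%), Cd209a in 18 of 62 (29.0%) and 246 of 551 (44.6%), and Clec9a in 39 of 62 and 294 of 551. Ccr7 was in 1 of 25 cycling dendritic cells of young reload and in 4 of 17 of old reload. These are shares of cells, not thinned, and cycling cells held more UMIs. They cannot say how far the lower Ccr7 level of young reload holds in other libraries. Clec9a was in 8 of 17 cycling dendritic cells of old reload and in 20 of 25 of young reload. Between old (17) and young (25) cycling dendritic cells at reload, 11.9% of 4036 genes were higher and 13.9% lower in old, with 0 of 29 S phase genes higher and 13 lower (median -0.53) and 6 of 32 G2 and M phase genes higher and 0 lower (median 0.27). Rrm2 stood at 145 CPM in old and 234 CPM in young cycling dendritic cells (-0.69).

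Cycling T cells were few, 32 in all against 1059 others, and 25 came from the control libraries. Of these 25, 9 carried a barcode found in more than 1 library (5 old and 4 young). Gzmb, the cytotoxic protease granzyme B, was in 15 of 32 cycling T cells (46.9%, interval 29.1 to 65.3), against 16.5% of other T cells, and Pdcd1, the inhibitory receptor PD-1, in 14 of 32 (43.8%, 26.4 to 62.3), against 17.3%. Cd8a was in 9 of 32, against 20.6%, Cd4 in 5 of 32, against 13.03%, and Foxp3, the factor of regulatory T cells, in 2 of 32, against 1.42%. Without barcodes found in more than 1 library, Gzmb was in 10 of 23 cycling T cells (43.5%, 23.2 to 65.5), against 14.98% of other T cells, Pdcd1 in 11 of 23, Cd8a and Cd4 in 5 of 23 each and Foxp3 in 1 of 23. Cycling cells held more UMIs, and these shares were not thinned, so the part of depth in them was not tested.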

How the data were processed

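The authors deposited UMI counts per gene and cell barcode for each library. Per the labels these counts were made with Cell Ranger 3.1.0 on mm10, and Seurat is named among the tools. The libraries used 3' chemistry, so a count stands for a transcript end. No scaling had been applied to the counts, which are whole.

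Here (Python 3.11.15, NumPy 2.4.6, SciPy 1.17.1, scanpy 1.11.5) barcodes were kept with at least 200 genes and at most 10% mitochondrial UMIs. No doublets were removed. Scrublet marks, at 0.8% per 1000 barcodes, were used in an alternative. Counts were summed over cells per library and lineage, divided by their total and compared as log2 ratios with exact Poisson intervals. A zero side was set to 3 counts. Shares have exact Clopper-Pearson 95% intervals. Thinning drew 2000 UMIs per cell. TMM factors came from edgeR 4.0.16. Of 31053 gene identifiers, 30934 matched GENCODE vM21. The scripts were tested on simulated data.

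Genes named were the genes of the rule, the panel markers, the 4 members of each list with most UMIs and its extremes, the 10 highest and 10 lowest of old over young with at least 100 UMIs, and the 10 with the highest ratio of cycling over other cells, while members named for their values in all 6 libraries were chosen after these were seen. The members, lists and panels were chosen with earlier results of these data known, and the lineage scoring rule was set after seeing the cells.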

Additional observations from a re-analysis of the deposited data

Results flagged for a closer look

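The change between control and reload ran in opposite directions in old and young mice for 3 shares. The share of kept cells that were cycling was 1.52 percentage points higher in reload than in control in old mice, and 1.07 points lower in young mice (difference -1.07). For macrophages the differences were 1.48 points in old mice and -3.63 points in young mice, and for dendritic cells 0.96 points in old mice and -3.47 points in young mice. Each value rests on 1 library per age and condition, so the difference between ages was not tested. Thinned to 2000 UMIs, the differences were 1.04 in old and -0.07 in young mice for all cells, 1.30 and 0.0015 for macrophages, and -2.56 and -3.43 for dendritic cells, so the opposite directions did not hold at equal depth for the lineages. Without barcodes found in more than 1 library they were 1.62 and -0.63, 1.24 and -3.26, and 0.754 and -3.40.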

How the results depend on the processing

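No paired analysis was possible because the labels give the groups no replicate numbers in common, and the 3 age pairs by condition could not go below an exact two-sided p of 0.25 and were not tested. With 1 library per group none could be left out in turn. Of 60 alternative values of the cycling share 42 stayed within the interval of the reported value, as did 69 of 72 lineage shares, 33 of 40 shares of a lineage in cycle, 8 of 12 old over young values and 20 of 48 list ratios. The recruited list in young control changed sign (-0.02 by summed counts and 0.11 with every cell weighted equally), both within the 1.5-fold limit, and no list ratio whose interval left out 0 changed sign. With 8 other cell cycle genes the cycling share was 1.41% in old control, 2.43% in young control, 0.741% in old HU, 2.64% in old reload and 2.20% in young reload. Thinned to 2000 UMIs these libraries gave 0.757%, 1.08%, 0.692%, 1.79% and 1.01%. Thinned to 4000 UMIs the share was 2.95% in old HU, 1.40% in young HU and 2.05% in young reload. With at least 1000 genes per cell it was 5.30% in young control, 2.49% in old HU, 1.38% in young HU and 4.79% in old reload, and with 3 genes of the rule 5.42% in young control. The macrophage share of cycling cells in young control was 35.7% after thinning, and the dendritic share of all was 12.5% by the rule's own genes with 2 UMIs. Thinned, cycling macrophages were 1.06% in old control, 0.904% in young control, 0.586% in old HU, 2.36% in old reload and 0.906% in young reload, and cycling dendritic cells 3.43% of all. Old over young genes numbered 223 higher and 2356 lower by mean UMIs per cell, and 2237 higher and 1610 lower with at least 1 UMI. The ratios of summed lists, cycling over other macrophages, were -0.29, -0.34 and -0.79 for resident, -0.37, -0.54 and -0.02 for recruited, -0.86, -0.70 and -0.38 for lipid-associated and -0.55, -0.24 and -0.21 for MHC class II genes in old reload, young reload and young control. With every cell weighted equally they were -0.19, -0.24 and -0.91 for resident, -0.73, -0.76 and -0.58 for lipid-associated and -0.74, -0.41 and -0.28 for MHC class II genes, and -0.48 in young reload for recruited genes. With macrophages taken by C1q alone they were -0.41 (resident), -0.50 (recruited), -0.92 (lipid-associated) and -0.32 (MHC class II) in old reload, -0.70 (recruited) in young reload and -0.17 (MHC class II) in young control. Thinned to 2000 UMIs they were -0.46 (recruited), -0.76 (lipid-associated) and -0.72 (MHC class II) in old reload, -0.15 (resident) and -0.48 (MHC class II) in young reload, and -0.94 (resident), -0.52 (lipid-associated) and -0.25 (MHC class II) in young control. Without barcodes found in more than 1 library the lipid-associated genes were at -0.30 and MHC class II genes at -0.26 in young control, and MHC class II genes at -0.63 in old reload. The cause of these shifts was not tested. Leaving out barcodes found in more than 1 library was added after seeing the data.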
